A study of Mus musculus with 18 samples.

Results

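The proteasome subunit genes are the genes that encode the parts of the proteasome, the protease that degrades ubiquitin-tagged proteins in the cytosol and nucleus, together with its activators, its inhibitor and the chaperones that build it. Members were chosen by symbol: every gene with a symbol made of Psm, a letter from a to g and a number, and with at least 1 transcript annotated as protein-coding. This gave 50 genes of the 54752 in the RNA tables, 21904 of which had a protein-coding transcript. All 50 were also listed in the footprint tables, and 4 further Psm symbols had no protein-coding transcript and were left out. By role the members were 8 genes of the alpha ring and 7 of the beta ring of the 20S core, 4 beta subunits of the immunoproteasome and the thymus, 6 ATPases of the 19S base, 3 scaffold and ubiquitin receptor genes of that base (Psmd1, Psmd2 and Psmd4), 8 genes of the 19S lid, 6 activators and inhibitors, 7 assembly chaperones, and Psmc3ip, a factor of meiotic recombination that meets the rule by its symbol and is not a proteasome subunit.

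RNA and ribosome footprints, the fragments of mRNA that ribosomes protect from nuclease, were sequenced from whole mouse cerebellum at 3 weeks of age. The genotypes compared, with 3 libraries per genotype and assay, were C57BL/6J (B6J) wild type mice, B6J.Gtpbp1-/- mice and B6J-Gtpbp2-/- mice. GTPBP1 and GTPBP2 are related translational GTPases that act on paused ribosomes, and the comparisons ask how loss of either changes RNA and footprints. The RNA libraries held 37.8 to 52.1 M estimated counts and the footprint libraries 3.63 to 10.4 M footprints on coding sequence. In the Gtpbp1-/- mice a neomycin cassette replaces part of the gene's coding exons, on a B6J congenic background, and in the Gtpbp2-/- mice the gene carries the nmf205 point mutation, which is null. All groups, the controls included, carry the B6J mutation that impairs the processing of a brain-enriched arginine tRNA (anticodon UCU), so no group has a normal level of that tRNA. Mice of both sexes were used and each footprint library came from the cerebellum of 1 mouse. RNA and footprint libraries with the same number were not all from the same mouse.

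The proteasome has a 20S core of stacked alpha and beta rings, with the active sites inside the beta rings, and 19S caps whose base unfolds substrates with ATP and whose lid removes ubiquitin. The subunits are needed in fixed ratios in each particle, and the transcription factor NRF1 (gene Nfe2l1) raises their expression together when proteasome activity is low. Interferons induce alternative catalytic subunits that replace the constitutive ones in the immunoproteasome, which in brain is found mainly in microglia and other immune cells.

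The targeted genes were examined first. Gtpbp1 RNA stood at 70.7, 77.6 and 66.5 CPM (estimated counts per M, with library totals scaled by edgeR's TMM factors) in the B6J libraries, 44.2, 41.7 and 43.8 in the Gtpbp1-/- libraries and 58.8, 72.3 and 65.8 in the Gtpbp2-/- libraries. Its footprints stood at 73.9, 116 and 85.6 in B6J, 31.7, 25.4 and 36.1 in Gtpbp1-/- and 79.3, 66.2 and 61.8 in Gtpbp2-/- (footprint CPM). In CPM the Gtpbp1-/- libraries were the lowest in both assays, with no overlap, and against B6J the log2 fold change was −0.73 ± 0.08 (SE) in RNA and −1.56 ± 0.23 in footprints (edgeR quasi-likelihood test, adjusted p = 5.94e-05 and 0.00676). In TPM (transcripts per M) the Gtpbp1 groups overlapped, at 43.5, 38.4 and 40.4 in B6J, 34.5, 35.1 and 41.1 in Gtpbp1-/- and 40.3, 43.2 and 39.9 in Gtpbp2-/-. Gtpbp2 RNA was 85.6, 73.8 and 87.8 in B6J, 109, 101 and 104 in Gtpbp1-/- and 65.6, 75.5 and 72.9 in Gtpbp2-/-, and its footprints were 44.9, 36.0 and 38.8 in B6J, 35.9, 43.1 and 59.2 in Gtpbp1-/- and 28.9, 26.2 and 7.51 in Gtpbp2-/-. The Gtpbp2-/- libraries were lowest in footprints and overlapped B6J in RNA CPM (−0.22, edgeR adjusted p = 0.190; footprints −0.97, edgeR adjusted p = 0.321). In TPM every Gtpbp2-/- library (127, 145 and 151) lay above every B6J library (114, 91.7 and 99.0), the direction opposite to that in CPM. The cause of the Gtpbp2 RNA level in Gtpbp2-/- was not tested. The share of Gtpbp2 TPM in protein-coding transcripts was 22.3, 26.5 and 27.6% in Gtpbp2-/- and 34.0 to 42.9% in the other libraries, with no overlap. In Gtpbp1-/- RNA Gtpbp2 rose by 0.34 (edgeR adjusted p = 0.0154), and between the mutants it was 0.55 higher in Gtpbp1-/- (0.0360).

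Markers of the labelled tissue were present in every library. Of 7 granule neuron markers none was at 0, the most abundant being Gabra6, and their summed level was 2761, 2908 and 2891 TPM in B6J, 1935, 1958 and 2284 in Gtpbp1-/- and 2106, 2243 and 1969 in Gtpbp2-/-. Of these, 6 fell in Gtpbp1-/- and 5 in Gtpbp2-/- RNA, beside 13.8% and 8.63% of all genes past the threshold. In footprints 0 of the 7 fell in Gtpbp1-/- and 5 in Gtpbp2-/-, with median log2 fold changes of −0.60 and −1.03. The footprint shares over all genes were 0.745% and 2.94%. The 4 Purkinje cell markers, led by Pcp4, summed to 3750 to 5288 TPM, and 2 of them fell in the RNA of each mutant. Their sum averaged 4737 ± 252 TPM in B6J, 4803 ± 601 in Gtpbp1-/- and 4236 ± 422 in Gtpbp2-/- (mean ± SD). In footprints 0 of the 4 passed in either mutant, and the median log2 fold changes were positive, at 0.34 and 0.33. In bulk tissue, fewer cells of a type and less RNA per cell cannot be told apart, and this holds for every result below. The part of these shifts in the results on proteasome genes was not tested.

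RNA of the constitutive subunits lay within a narrow range. Averaged over the 9 RNA libraries, the 14 constitutive genes of the 20S core (Psma8, the testis alpha subunit, set aside) ran from 83.2 TPM for Psma2 to 215 for Psma7, with a median of 163, so that the highest was 2.59 times the lowest. The coefficient of variation among these 14 genes was 25.5 to 29.5% in the single libraries. Among the 17 genes of the 19S cap the range was 71.3 TPM for Psmd11, a lid subunit, to 230.3 for Psmc5, an ATPase of the base, or 3.23 times, and the coefficient of variation was 30.4 to 33.7%. In B6J alone Psma7 had 207 ± 10.7 TPM and Psma2 77.9 ± 5.72 (mean ± SD, n = 3). These are the extremes of the 14 core genes, so the gap between them does not stand for the other genes.

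Footprints, as footprint CPM per kilobase of coding sequence, were less even than RNA. For the 14 core genes they ran from 82.2 for Psma5 to 317 for Psmb4, 3.86 times, with a coefficient of variation of 36.4 to 43.2% in the single libraries, and for the 17 cap genes from 60.8 for Psmd1 to 226 for Psmd8, with 33.6 to 41.8%. The order of the core genes by TPM was alike in all libraries (Spearman's rho across the 14 genes 0.723 to 0.978 over the 36 pairs of libraries, median 0.934), as was the order by footprints (0.758 to 0.974, median 0.862). The 2 orders were less alike with each other: rho was 0.266 across the 14 core genes and 0.618 across the 17 cap genes. These are correlations across genes, which are not independent replicates, and no p is given for them.

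Some members share coding sequence with other places in the genome. Of the 50 members, 27 had no 30-base window of their coding sequence elsewhere in the genome, 23 had at least 1 and 10 had at least 40% of their windows elsewhere. The ratio of footprints per kilobase to TPM had a median of 0.788 in the 9 of these 10 with a mean of at least 10 TPM and of 1.23 in the 35 other members at that level, with ranges of 0.329 to 0.871 and 0.246 to 3.13. Psma3 (91.7% of windows elsewhere), Psma5 (89.3%), Psmb3 (84.6%), Psme2 (79.1%), Psmb5 (78.0%) and Psma4 (60.2%), with Psmd11 (51.3%), Psmc1 (49.7%) and Psmd2 (46.7%), are reported as uncertain in their footprint level, and the effect of the copies on the order of the genes was not tested.

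**Figure D1:**
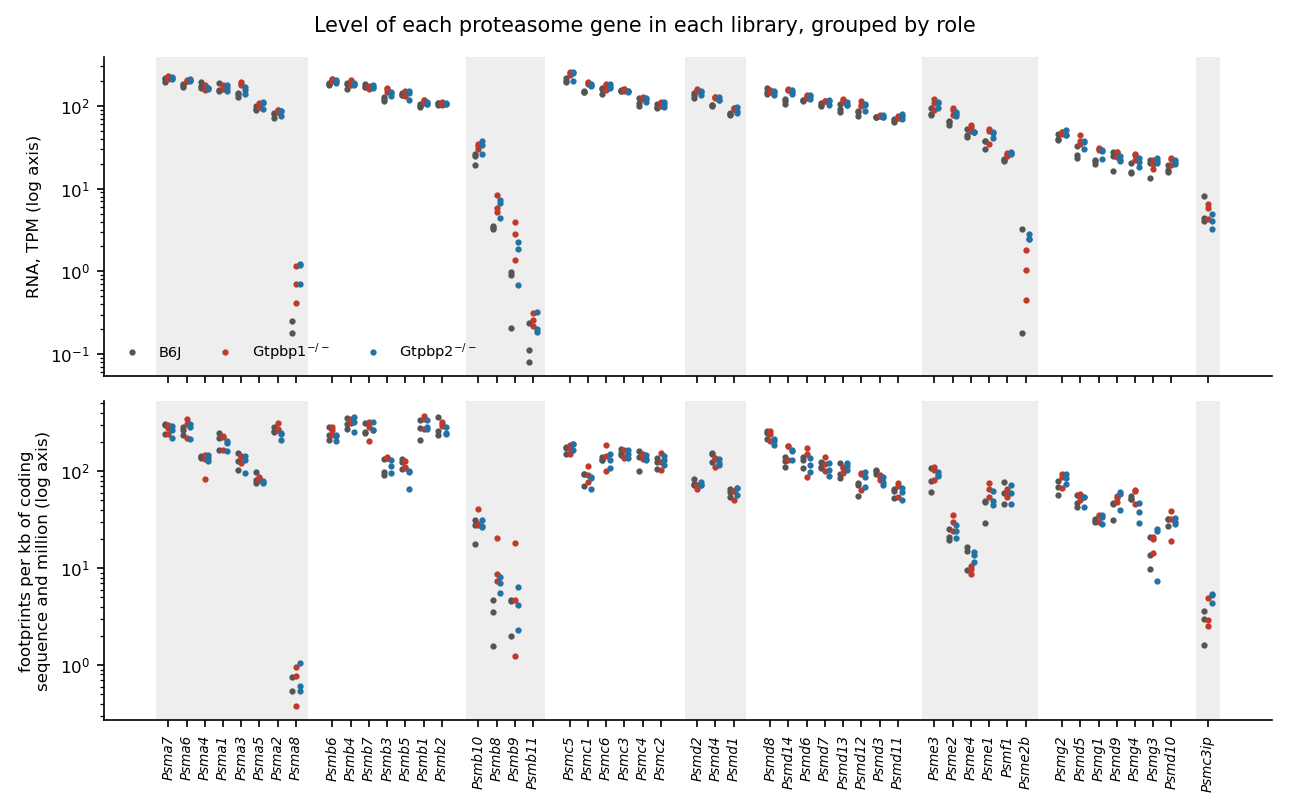
Level of each of the 50 members in each of the 18 libraries, RNA in TPM above and footprint CPM per kilobase of coding sequence below, on log axes, with 1 point per library coloured by genotype and the members grouped by role; libraries at 0 are not drawn. The constitutive 20S and 19S genes lie within 1 band near 100 TPM. Averaged over the 9 RNA libraries, the assembly chaperones lie between 20.03 and 45.2 TPM, and Psma8, Psmb8, Psmb9, Psmb11, Psme2b and Psmc3ip lie under 6 TPM.

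The medians of the other roles lay lower. The 7 assembly chaperones, which act on intermediates and leave the finished particle, ran from 20.03 TPM for Psmd10 to 45.2 for Psmg2, under every constitutive subunit. Among the activators, which open the gate of the core, Psme3 (98.7 TPM) was the most abundant, ahead of Psme2 (76.9), Psme4 (49.9) and Psme1 (42.0), and the inhibitor gene Psmf1 stood at 24.97. The immunoproteasome genes were low: Psmb10 at 29.4 TPM, Psmb8 at 5.33 and Psmb9 at 1.67, against 171 for Psmb7, 139 for Psmb5 and 196 for Psmb6, the constitutive genes whose products they replace. Psmb11, the beta subunit of thymic epithelium, averaged 0.213 TPM with 0 footprints in all 9 libraries, and Psma8, the alpha subunit of the testis, averaged 0.650 TPM with 0 to 0.936 footprint CPM. Psme2b, a retrocopy of Psme2 with 53.1% of its windows elsewhere, had 1.61 TPM and 0 footprints in all 9 libraries.

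Not all of this RNA was annotated as coding. Protein-coding transcripts held a median of 93.6% of a member's TPM, and at least 90% in 32 of the 50. The share was under 50% in 4 members: 17.5% in Psma3, 29.1% in Psmb10, 39.4% in the lid gene Psmd13 and 47.0% in Psmc3ip. In Psma3 a retained-intron transcript (Psma3-203) averaged 50.3 TPM in B6J and an annotated decay target (Psma3-201) 45.1, against 24.1 for the coding transcript Psma3-202. Short transcripts of a gene that share most bases are hard to separate by pseudo-alignment, so these shares are estimates.

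The members' summed RNA was nearly the same in the 3 genotypes after TMM scaling. It was 3004 ± 57.7 CPM in B6J, 3045 ± 35.9 in Gtpbp1-/- and 2960 ± 135 in Gtpbp2-/- (mean ± SD, n = 3). In TPM the sum was 4475 ± 124, 5107 ± 78.9 and 4896 ± 207. All 6 mutant libraries lay above the 3 B6J libraries on that scale. The scale itself moved, however: over the 18930 and 18954 genes with at least 1 TPM the median log2 ratio to B6J was 0.16 in Gtpbp1-/- and 0.15 in Gtpbp2-/-, and the members' median lay 0.04 and 0.02 above that. Of all RNA counts, without TMM scaling, the members took 0.286 ± 0.011% in B6J, 0.314 ± 0.008% in Gtpbp1-/- and 0.303 ± 0.015% in Gtpbp2-/-. Every Gtpbp1-/- library lay above every B6J library on this scale, and Gtpbp2-/- overlapped B6J. Of all footprints, likewise unscaled, the members took 0.544 ± 0.033% in B6J, 0.572 ± 0.065% in Gtpbp1-/- and 0.545 ± 0.048% in Gtpbp2-/-, and the groups overlapped.

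A few members changed in Gtpbp1-/- RNA, Psmb8 by 0.98 and the others by less than 0.4 in log2. Against B6J 5 of the 50 passed the test: the lid deubiquitinase gene Psmd14, the immunoproteasome gene Psmb8, the base chaperone gene Psmd9 and the base ATPase gene Psmc1 rose, and the core beta subunit gene Psmb7 fell. Over all genes 13.8% of the 24577 tested passed (1449 higher, 1949 lower; edgeR quasi-likelihood test, adjusted p of at most 0.05). At an unadjusted p under 0.05 there were 13 members, 9 higher and 4 lower, beside 26.3% of all genes. The members' median log2 fold change was 0.04 and that of all genes 0.03. With upper quartile factors in place of TMM the balance over all genes turned, with 1837 higher and 1512 lower past the threshold.

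Psmd14, which encodes the lid's deubiquitinase, had 74.4, 66.8 and 69.2 CPM in B6J, 86.8, 86.5 and 85.0 in Gtpbp1-/- and 74.3, 80.2 and 88.4 in Gtpbp2-/-. All Gtpbp1-/- libraries lay above all B6J libraries, and the Gtpbp2-/- libraries reached from the B6J range to the highest value of all. The log2 fold change was 0.29 ± 0.07 in Gtpbp1-/- (edgeR adjusted p = 0.0183) and 0.20 ± 0.09 in Gtpbp2-/- (edgeR adjusted p = 0.198).

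Psmb8, the inducible counterpart of the chymotrypsin-like subunit, had 1.27, 2.02 and 1.92 CPM in B6J, 3.03, 3.57 and 3.73 in Gtpbp1-/- and 2.54, 3.86 and 4.20 in Gtpbp2-/-. Every mutant library lay above every B6J library. This was the largest change among the members that passed, 0.98 ± 0.26 in Gtpbp1-/- (edgeR adjusted p = 0.0264), and in Gtpbp2-/- the value of 1.01 ± 0.29 missed the threshold (edgeR adjusted p = 0.0509), which it passed in 6 of 13 alternatives (0.0111 to 0.206).

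Psmd9, a chaperone of the base ATPases, had 22.4, 22.2 and 24.8 in B6J, 29.8, 28.9 and 30.04 in Gtpbp1-/- and 26.4, 28.4 and 29.3 in Gtpbp2-/-, and Psmc1, an ATPase of the base, had 117, 115 and 114 in B6J, 132, 141 and 134 in Gtpbp1-/- and 116, 129 and 133 in Gtpbp2-/-. Both genes were higher in every Gtpbp1-/- library than in any B6J library, and for Psmd9 this held for Gtpbp2-/- too. The changes in Gtpbp1-/- were 0.35 ± 0.10 (edgeR adjusted p = 0.0285) and 0.23 ± 0.07 (edgeR adjusted p = 0.0447). In Gtpbp2-/- they were 0.27 ± 0.10 (edgeR adjusted p = 0.135) and 0.12 ± 0.08 (edgeR adjusted p = 0.409). With an offset for transcript length the Psmd9 value in Gtpbp2-/- turned to −0.16.

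Psmb7, the constitutive subunit with trypsin-like activity, fell. It had 83.2, 85.3 and 93.2 CPM in B6J, 77.0, 75.5 and 68.8 in Gtpbp1-/- and 80.5, 73.7 and 74.7 in Gtpbp2-/-, with every mutant library under every B6J library. The fold change was −0.25 ± 0.08 in Gtpbp1-/- (edgeR adjusted p = 0.0487) and −0.20 ± 0.08 in Gtpbp2-/- (edgeR adjusted p = 0.151). In TPM, a scale on which the median of all genes was 0.16 higher, its groups overlapped (169, 171 and 186 against 174, 170.4 and 158).

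The next smallest p-values belonged to the core alpha subunit gene Psma4 and the lid gene Psmd8. Psma4 had 73.5, 77.5 and 89.2 in B6J, 70.9, 65.5 and 61.8 in Gtpbp1-/- and 65.2, 66.9 and 62.4 in Gtpbp2-/-, and Psmd8 had 95.4, 89.4 and 108 in B6J, 87.1, 79.3 and 80.5 in Gtpbp1-/- and 86.3, 82.2 and 75.3 in Gtpbp2-/-. Every mutant library was under every B6J library in both genes. Neither passed: Psma4 stood at −0.28 ± 0.09 (edgeR adjusted p = 0.0504) and −0.31 ± 0.09 (0.0528), and Psmd8 at −0.25 ± 0.08 (0.0656) and −0.27 ± 0.09 (0.0967). Psma4 did pass in 3 of 14 alternatives in Gtpbp1-/- (DESeq2, all libraries in 1 model and no filter) and in the same 3 of 13 in Gtpbp2-/-, and Psmd8 in 3 of 14 in Gtpbp1-/- (DESeq2, no filter and without B6J replicate 2, the last with an edgeR adjusted p = 0.0484 within 0.0442 to 0.287).

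**Figure D2:**
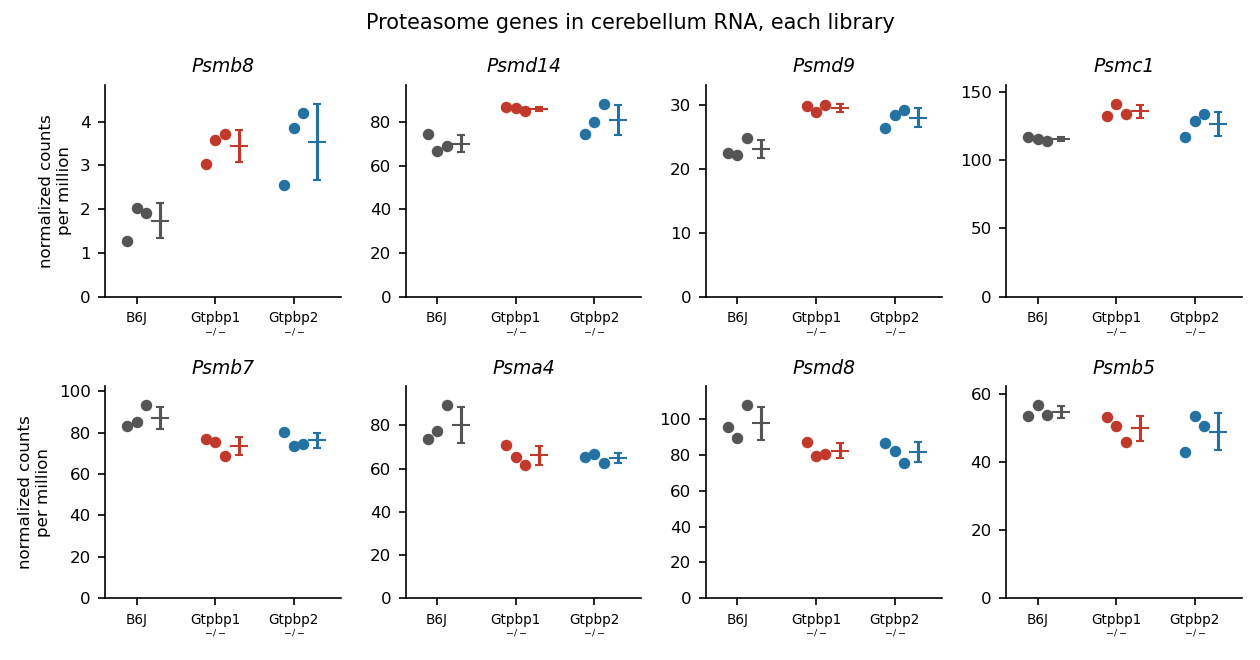
RNA of 8 members in CPM, 1 point per library, with the mean and SD of the 3 libraries of each genotype beside the points. Psmb8 was at 1.27 to 2.02 in B6J and 2.54 to 4.20 in the mutants, and Psmd14 at 66.8 to 74.4 in B6J and 85.0 to 86.8 in Gtpbp1-/-.

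The 5 calls were close to the threshold. Without B6J replicate 1, 2 or 3 the number of members that passed was 1, 2 and 3. Without Gtpbp1-/- replicate 1, 2 or 3 it was 1, 0 and 1. With DESeq2 it was 8, with the sex of the mice as a covariate 1 (Psmd14), and with an offset for transcript length 1 (Psmd14). Over all genes the 3398 calls became 4284, 2301 and 2227 in the last 3 of these, and 1890 to 3798 with single libraries left out. Psmb8 was thus lost with the sex covariate. Sex was not balanced between the RNA groups, as given under other observations. Psmd14 was lost without B6J replicate 2 (edgeR adjusted p = 0.0770) and without Gtpbp1-/- replicate 1 (0.0566) or 2 (0.0818), and Psmb8 without B6J replicate 1 (0.0816) and Gtpbp1-/- replicate 2 (0.105) or 3 (0.0950). Psmd9 was lost without B6J replicate 1 (0.0871) or 2 (0.0922) and without Gtpbp1-/- replicate 1, 2 or 3 (0.0715, 0.0871 and 0.0791). Psmc1 was lost without any B6J library (0.119, 0.108 and 0.0775 in order) or Gtpbp1-/- library (0.0655, 0.193 and 0.0782), and Psmb7 likewise (0.0776, 0.0898 and 0.111, then 0.0742, 0.125 and 0.157). Of 14 alternatives tried, Psmd14 passed in 10, Psmb8 in 9, Psmd9 in 6, Psmc1 in 4 and Psmb7 in 3.

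With the length offset Psmd9 moved to 0.04 (edgeR adjusted p = 0.936). Its longest protein-coding transcript, Psmd9-201, was at 12.2, 13.4 and 12.9 TPM in B6J and 19.7, 18.8 and 20.4 in Gtpbp1-/-. The short Psmd9-204 ran from 1.68 to 11.1 TPM in B6J alone. The shorter Psmd9-205 was at 7.82 TPM in B6J replicate 1 and 0 in all other libraries. The part of these transcripts in the move was not tested. Over the alternatives the adjusted p of Psmd9 in edgeR and DESeq2 lay between 0.00858 and 0.936. The offset also took Psmb8 to 0.76 (edgeR adjusted p = 0.130), within a range of 0.00574 to 0.130 over the alternatives.

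Shared sequence and overlapping genes are given here as limits, and their effect on these RNA calls was not tested. The RNA libraries did not mark strand, so reads of a gene and of an antisense neighbour cannot be told apart, and 25.5% of the exon bases of Psmd9 overlap the lincRNA Gm26745, 14.7% of Psmb8 the antisense gene Gm20496 and 11.8% of Psmb7 the kinase gene Nek6, all on the other strand. Of the 30-base coding windows 49.7% occur elsewhere in the genome for Psmc1, 60.2% for Psma4, 19.6% for Psmb7 and 11.99% for Psmd14, a window length that suits footprints more than the longer RNA reads.

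By role the changes in Gtpbp1-/- RNA did not run in 1 direction. Of the 7 beta ring genes 5 had a negative fold change (median −0.06, range −0.25 to 0.16) and 1 passed, and of the 8 alpha ring genes 5 were negative (median −0.04) and none passed. The 6 base ATPase genes had a median of 0.03, the 3 scaffold genes of 0.06 and the 8 lid genes of 0.00, with 1, 0 and 1 of them past the threshold. The 7 assembly chaperones had a median of 0.21, with 1 past the threshold (Psmd9) and 3 at an unadjusted p under 0.05 (Psmd9, Psmg1 and Psmd5), beside the 13.8% and 26.3% of all genes. None of the 6 activators and inhibitors passed (0 also at an unadjusted p under 0.05). The same medians in Gtpbp2-/- were −0.08 for the beta ring, 0.00 for the alpha ring, 0.01 for the ATPases, −0.02 for the scaffold, −0.01 for the lid, 0.12 for the chaperones and 0.08 for the activators. Both sets of values share the B6J libraries.

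In Gtpbp2-/- RNA no member passed. The count was 0 of 50 with edgeR and 2 with DESeq2 (Psma4 and Psmb8), beside 8.63% of the 24859 genes tested with edgeR (2146 genes, and 3409 with DESeq2), and 8 members were under an unadjusted p of 0.05, 4 higher and 4 lower, beside 22.5% of all genes. Their median log2 fold change was 0.02 and that of all genes 0.03. The 8 were Psmb8, Psmd9, Psmd14 and Psma8 above and Psma4, Psmd8, Psmc3 and Psmb7 below B6J. Without Gtpbp2-/- replicate 1 the count was 1 (Psmb8, edgeR adjusted p = 0.0264 within 0.0111 to 0.206 over the alternatives) and without B6J replicate 3 it was 1 as well (Psme2b, 0.0111). Psma8 had the largest value, 2.45 ± 0.95 (edgeR adjusted p = 0.147), from 0.127, 0.151 and 0 CPM in B6J and 0.235, 0.633 and 0.675 in Gtpbp2-/-, levels at the limit of what these libraries detect.

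No member passed the test between the mutants. With edgeR 0 of 50 passed between Gtpbp1-/- and Gtpbp2-/- RNA, with DESeq2 also 0, beside 0.0595% of 25190 genes with edgeR (15 genes, and 46 with DESeq2), and the median was 0.03 beside 0.00 for all genes. At an unadjusted p under 0.05 there was 1 member, Psme2b (−1.27 ± 0.46, edgeR adjusted p = 1.00), beside 3.57% of all genes. Its RNA stood at 0, 0.0646 and 1.15 CPM in B6J, 0.132, 0.544 and 0.313 in Gtpbp1-/- and 0.898, 0.786 and 0.731 in Gtpbp2-/-, and 1 B6J library was above all others.

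**Figure D3:**
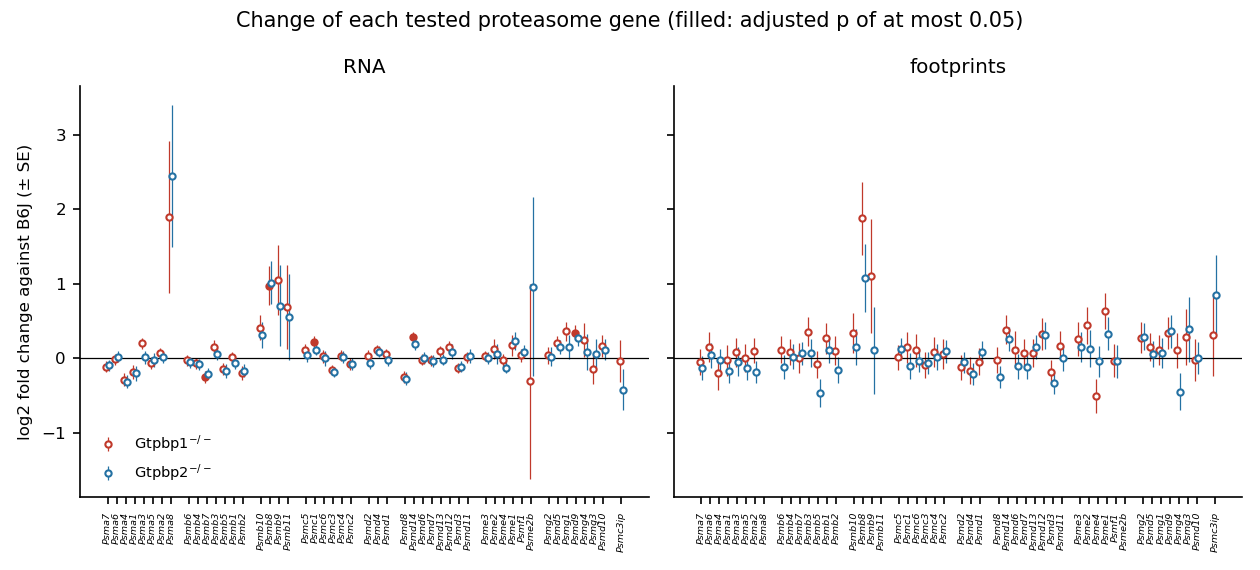
Log2 fold change against B6J, with its standard error, of each tested member in RNA (left) and footprints (right) for both mutants, ordered by role and level; filled points passed edgeR's test at an adjusted p of at most 0.05. The filled points are Psmb7, Psmb8, Psmc1, Psmd9 and Psmd14 in Gtpbp1-/- RNA, and no point is filled in footprints.

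The catalytic subunits allow a comparison of each constitutive gene with its interferon-inducible counterpart. Psmb5, with chymotrypsin-like activity, had 53.8, 56.8 and 53.9 CPM in B6J, 53.3, 50.7 and 46.0 in Gtpbp1-/- and 43.0, 53.5 and 50.7 in Gtpbp2-/-. Every mutant library of Psmb5 lay under every B6J library, some of them narrowly, with a fold change of −0.14 ± 0.08 (edgeR adjusted p = 0.318) and −0.17 ± 0.09 (0.337). Psmb6, with caspase-like activity, was level at 61.8, 63.8 and 60.8 in B6J, 63.4, 62.4 and 58.0 in Gtpbp1-/- and 59.0, 60.7 and 61.4 in Gtpbp2-/- (−0.03 ± 0.07 and −0.05 ± 0.07; edgeR adjusted p = 0.873 and 0.769). These 3 groups overlapped throughout. In TPM, with the shift of scale given above, the Psmb5 groups overlapped and every mutant library of Psmb6 lay above every B6J library.

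Psmb9, the counterpart of Psmb6, was scarce: 0.998, 0.603 and 0.277 in B6J, 1.34, 1.69 and 0.887 in Gtpbp1-/- and 0.470, 1.15 and 1.46 in Gtpbp2-/-. The highest B6J library overlapped both mutants, and the changes of 1.06 ± 0.47 (edgeR adjusted p = 0.172) and 0.71 ± 0.54 (0.504) did not pass. With single libraries left out they ran from 0.70 to 1.57 in Gtpbp1-/- and from 0.36 to 1.22 in Gtpbp2-/-. Of the exon bases of Psmb9 5.79% overlap the peptide transporter gene Tap1 on the other strand. Psmb10, the counterpart of Psmb7, had 8.77, 8.12 and 6.28 in B6J, 10.1, 11.96 and 8.94 in Gtpbp1-/- and 9.60, 8.80 and 10.6 in Gtpbp2-/-. Every mutant library of Psmb10 lay above every B6J library, and the changes of 0.42 ± 0.17 (edgeR adjusted p = 0.138) and 0.31 ± 0.17 (0.318) did not pass. Most Psmb10 TPM lay outside protein-coding transcripts, as given above. The retained-intron transcript Psmb10-205 averaged 6.57 TPM in B6J, 14.8 in Gtpbp1-/- and 14.6 in Gtpbp2-/-. The coding transcript Psmb10-201 averaged 5.98, 10.8 and 8.93, and the other transcripts moved either way. The 4 immunoproteasome and thymus genes had positive values in both mutants, with a median of 0.84 in Gtpbp1-/- and 0.63 in Gtpbp2-/-. Of the 4, 1 passed in Gtpbp1-/- (Psmb8), beside 13.8% of all genes, and 0 in Gtpbp2-/-, beside 8.63%. At an unadjusted p under 0.05 there were 3 in Gtpbp1-/- and 1 in Gtpbp2-/-, beside 26.3% and 22.5% of all genes.

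**Figure D4:**
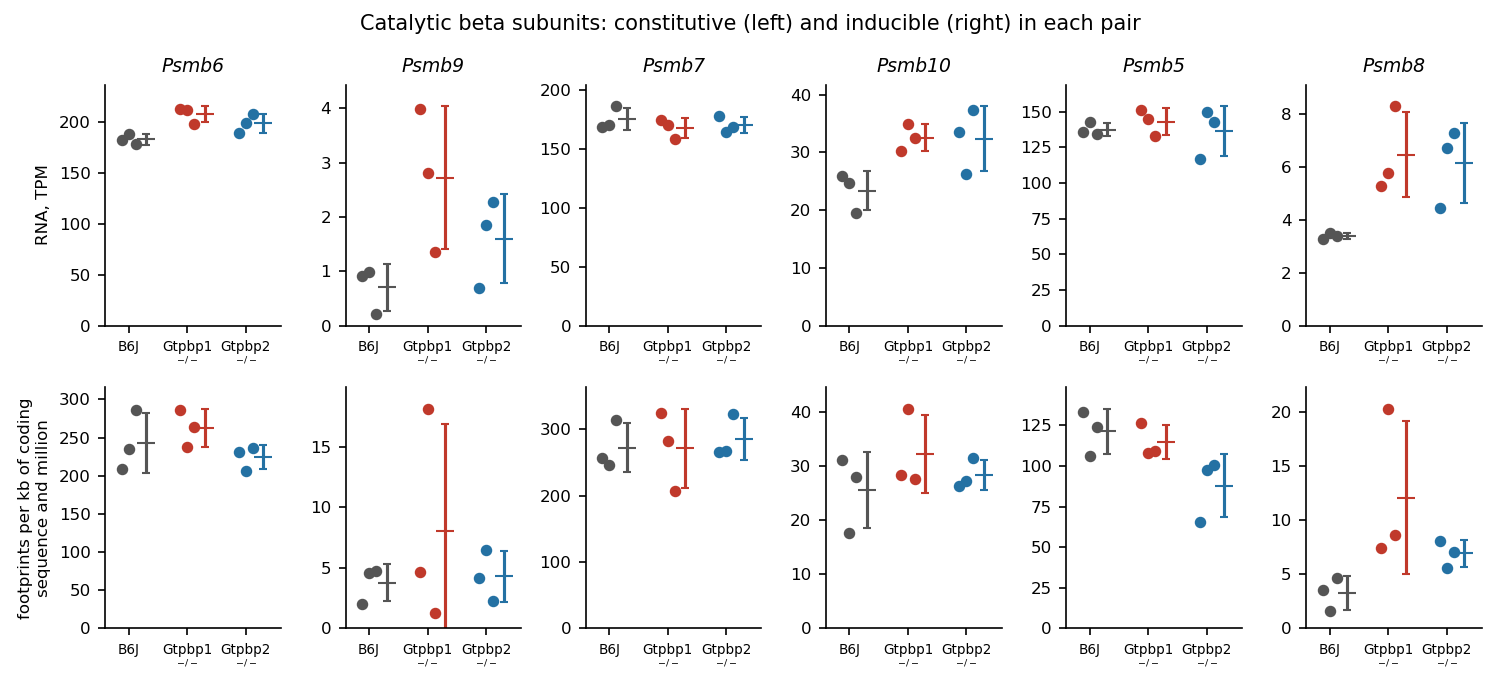
RNA in TPM (above) and footprint CPM per kilobase of coding sequence (below) of each constitutive catalytic subunit gene and, to its right, its inducible counterpart, 1 point per library with the mean and SD of each genotype (an SD bar that would pass below 0 ends at the axis). The inducible genes lie under 42 on both scales and the constitutive genes over 60, and the highest footprint values of Psmb8 and Psmb9, 20.3 and 18.1, come from the same Gtpbp1-/- library.

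Footprints of Psmb8 were also lowest in B6J, with more scatter. There were 13, 6 and 24 footprints in the B6J libraries, 43, 147 and 42 in Gtpbp1-/- and 43, 17 and 61 in Gtpbp2-/-, or 2.92, 1.32 and 3.85 in B6J, 6.15, 16.8 and 7.12 in Gtpbp1-/- and 6.71, 4.63 and 5.87 in Gtpbp2-/- (footprint CPM). Every mutant library lay above every B6J library, and Gtpbp1-/- replicate 2 stood apart at more than the sum of the other Gtpbp1-/- libraries. The fold change was 1.88 ± 0.49 in Gtpbp1-/- (edgeR adjusted p = 0.104) and 1.08 ± 0.46 in Gtpbp2-/- (0.243), neither past the threshold. Over the alternatives tried it ran from 1.29 to 2.25 in Gtpbp1-/- and passed in 1 of 11 (DESeq2 adjusted p = 0.0165). Psmb9 had 6, 14 and 20 footprints in B6J, 22, 107 and 5 in Gtpbp1-/- and 18, 16 and 16 in Gtpbp2-/-. The groups of Psmb9 overlapped, and its value in Gtpbp1-/- (1.11 ± 0.76, edgeR adjusted p = 0.600) turned to −0.31 without Gtpbp1-/- replicate 2.

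Psmb10 footprints overlapped between groups at 25.6, 14.5 and 22.9 footprint CPM in B6J, 23.3, 33.3 and 22.7 in Gtpbp1-/- and 21.5, 22.3 and 25.9 in Gtpbp2-/-. Psmb5 footprints were 106, 84.3 and 98.5 in B6J, 100.4, 85.5 and 86.7 in Gtpbp1-/- and 52.1, 77.1 and 79.8 in Gtpbp2-/-. All Gtpbp2-/- libraries of Psmb5 lay under those of B6J, at −0.46 ± 0.19 with an edgeR adjusted p of 0.216. Psmb6 had 149, 168 and 204 in B6J, 204, 169 and 189 in Gtpbp1-/- and 165, 147 and 169 in Gtpbp2-/-, and Psmb7, whose RNA fell in Gtpbp1-/-, had 213, 204 and 261 in B6J, 269, 235 and 172 in Gtpbp1-/- and 221, 222 and 268 in Gtpbp2-/-. In both the groups overlapped, and the Psmb7 footprint change was 0.00 ± 0.20 in Gtpbp1-/- and 0.07 ± 0.16 in Gtpbp2-/-.

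Genes of other lists moved beside Psmb8. Of 10 microglia markers 8 rose in the RNA of each mutant, with a summed level of 172, 160.3 and 176 TPM in B6J, 453, 368 and 396 in Gtpbp1-/- and 353, 401 and 399 in Gtpbp2-/-, with none at 0. In footprints 3 of the 10 rose in each mutant, and their sum was 335, 369 and 326 footprint CPM in B6J, 946, 512 and 923 in Gtpbp1-/- and 518, 461 and 734 in Gtpbp2-/-, every mutant library lying above every B6J library. Of 3 endothelial markers, led by Cldn5, 2 rose in each mutant (55.6, 55.6 and 58.2 TPM in B6J, 82.1, 93.6 and 88.0 in Gtpbp1-/- and 80.0, 103 and 109 in Gtpbp2-/-). Over all genes 13.8% passed in Gtpbp1-/- RNA and 8.63% in Gtpbp2-/- RNA, and in footprints 0.745% and 2.94%. The part of these lists in the Psmb8 result was not tested.

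Of 17 interferon-inducible and antigen presentation genes 13 rose and 1 fell, Stat2 (−0.37), in Gtpbp1-/- RNA, and 10 rose in Gtpbp2-/-, with medians of 0.77 and 0.63 beside 0.03 for all genes in each. The share of all genes past the threshold was 13.8% and 8.63%. Among the genes that rose in Gtpbp1-/- were Irf7 (2.12), B2m (0.72), Bst2 (1.62) and Ifit3 (2.01), and among those in Gtpbp2-/- Irf7 (1.65), Ifit3 (1.66), Nlrc5 (2.205) and Tap1 (1.08). Irf7 was lost in both mutants where protein-coding transcripts alone were counted (edgeR adjusted p = 0.134 and 0.155), and passed in the other alternatives. With the offset for transcript length Tap1 in Gtpbp2-/- moved to 0.46 (edgeR adjusted p = 0.615), and it was also lost without Gtpbp2-/- replicate 3 (0.0570), passing in 11 of 13 alternatives with an adjusted p of up to 0.615. In footprints 2 of 16 rose past the threshold in Gtpbp1-/-, B2m (1.05, edgeR adjusted p = 0.0197) and Bst2 (1.17, 0.0400), and 0 of 16 in Gtpbp2-/-. Over all genes 0.745% and 2.94% passed. At an unadjusted p under 0.05 there were 11 in Gtpbp1-/-, 10 higher and 1 lower, beside 12.6% of all genes. In Gtpbp2-/- there were 3, all higher, beside 17.1%. B2m passed in 6 of 11 alternatives and was lost without B6J replicate 1 (0.164) or 2 (0.0870) and without Gtpbp1-/- replicate 1 (0.0738) or 2 (0.0636). Bst2 passed in 3 of 11 and was lost without any 1 of the 6 libraries (0.206, 0.0537 and 0.0804 for B6J, 0.0673, 0.118 and 0.0521 for Gtpbp1-/-).

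Of the marker lists of other cells, astrocytes and Bergmann glia had 1 of 4 higher and 1 lower in the RNA of each mutant. Oligodendrocytes had 4 of 4 lower in Gtpbp1-/- RNA and 0 in Gtpbp2-/- RNA. In footprints 0 of these 4 passed in either mutant, with medians of 0.11 and 0.15. Blood, lymphocytes and testis germ cells had 1 of 3 higher each in Gtpbp1-/- RNA and 0 in Gtpbp2-/- RNA. The genes that rose were Alas2, Ptprc and Sycp3. The other genes of these lists did not pass, with Ddx4 at −0.29 and Dmc1 at −0.57 in Gtpbp1-/-. Over all genes 13.8% and 8.63% passed in RNA. None of the 3 choroid plexus and 5 bone and muscle markers passed in either mutant. In footprints the bone and muscle markers summed to 274, 662 and 887 footprint CPM in B6J, 1551, 1359 and 2676 in Gtpbp1-/- and 602, 962 and 471 in Gtpbp2-/-. In Gtpbp1-/- 4 of the 5 were at an unadjusted p under 0.05, beside 12.6% of all genes. Every Gtpbp1-/- library lay above all libraries of the other genotypes in this sum. The choroid plexus markers ran from 51.3 to 13570 footprint CPM between libraries.

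The other members past the threshold in RNA did not pass in footprints. Psmd14 had 119.5, 103 and 131 footprint CPM in B6J and 169.8, 169 and 122 in Gtpbp1-/- (0.39 ± 0.20), Psmd9 23.1, 35.1 and 33.8 in B6J and 39.2, 36.1 and 41.4 in Gtpbp1-/- (0.34 ± 0.22), and Psmc1 122, 92.2 and 122.7 in B6J and 150.3, 121 and 101 in Gtpbp1-/- (0.15 ± 0.20). The groups overlapped in Psmd14 and Psmc1, and every Gtpbp1-/- library of Psmd9 lay above every B6J library.

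Over all members, footprints showed no change past the threshold. In Gtpbp1-/- 0 of 47 tested members passed with edgeR and 1 with DESeq2 (Psmb8), beside 0.745% of 13956 genes with edgeR (104 genes, and 406 with DESeq2), and Psma8, Psmb11 and Psme2b had too few footprints to test. At an unadjusted p under 0.05 there were 3, beside 12.6% of all genes: Psmb8, Psme1 (0.64 ± 0.24, edgeR adjusted p = 0.262) and Psme4 (−0.50 ± 0.23, 0.375). The members' median was 0.11 and that of all genes 0.01, and 34 of the 47 values were positive. In Gtpbp2-/- the count was 0 of 47 with edgeR and 0 with DESeq2, beside 2.94% of 13797 genes with edgeR (406 genes, and 655 with DESeq2), with 3 members at an unadjusted p under 0.05, Psmb5, Psmb8 and Psmd3, beside 17.1% of all genes. The median there was 0.02 beside 0.01. Single libraries differed as much as genotypes: over the members the median log2 ratio to the mean of B6J was 0.01, −0.16 and 0.14 in the B6J libraries themselves and 0.24, 0.10 and −0.07 in Gtpbp1-/-.

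Psme1 and Psme4 encode activators of the core. Psme1, a subunit of the interferon-inducible activator, had 35.7, 21.7 and 36.6 footprint CPM in B6J, 48.6, 56.6 and 40.7 in Gtpbp1-/- and 37.1, 33.5 and 47.2 in Gtpbp2-/-, and the Gtpbp1-/- libraries lay above those of B6J. Psme4, a large activator found in the nucleus, had 96.2, 88.2 and 55.2 in B6J, 50.3, 56.8 and 61.4 in Gtpbp1-/- and 86.0, 78.7 and 67.9 in Gtpbp2-/-. The third B6J library lay within the Gtpbp1-/- range, and all Gtpbp2-/- libraries lay above those of Gtpbp1-/-. AGA is the codon read by the arginine tRNA that is reduced in B6J, and its share of codons was highest in Psmc6 (3.86%), Psma1 (3.42%), Psma3 (2.75%) and Psme4 (2.66%). Over the members AGA made up a median of 1.14% of codons and over 21501 genes 1.12%. In Gtpbp1-/- footprints the fold changes ran from −0.20 to 0.15 over the alpha ring genes, which include Psma1 and Psma3. Over the base ATPase genes, which include Psmc6, they ran from −0.09 to 0.15. A link between AGA share and footprint change was not tested.

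Between the mutants 0 of 48 members passed in footprints (edgeR, and 0 with DESeq2), beside 0% of 14142 genes with edgeR (100 genes with DESeq2). At an unadjusted p under 0.05 there was 1, Psme4 (−0.47 ± 0.18, edgeR adjusted p = 0.392), beside 10.8% of all genes, and the median was 0.09 beside 0.00.

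Translational efficiency, the change in footprints relative to the change in RNA, was tested in 47 members. In Gtpbp1-/- 0 passed with edgeR and 0 with DESeq2, and 0 were under an unadjusted p of 0.05, beside 0% of 13086 genes with edgeR (58 genes with DESeq2) and 8.94% at the unadjusted p. In Gtpbp2-/- 0 passed (DESeq2 0), beside 0.00773% of 12931 genes with edgeR (160 genes with DESeq2), and 1 member, Psmc3ip (1.28 ± 0.52, edgeR adjusted p = 0.349), was under an unadjusted p of 0.05 beside 12% of all genes. Between the mutants 0 passed (DESeq2 0), beside 0% of 13292 genes with edgeR (155 genes with DESeq2), and 2 members, Psme4 (−0.56 ± 0.18, edgeR adjusted p = 0.302) and Psmc3ip, were under the unadjusted p beside 11.2%. The medians were 0.08, 0.02 and 0.07 beside 0.03, 0.03 and 0.01 for all genes. All 7 beta ring genes had a positive value in Gtpbp1-/-, 0.07 to 0.30 with a median of 0.20 and a median SE of 0.20, and 5 of the 7 in Gtpbp2-/-. In Gtpbp1-/- the 3 scaffold genes (median −0.15) and 5 of the 7 chaperones (median −0.06) had negative values, and these roles were named after the values were seen. All RNA libraries carry the label batch 1 and all footprint libraries batch 2, so assay and batch cannot be told apart, but each batch holds all 3 genotypes.

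Other genes of the pathway were followed in 3 further lists. Of 13 regulators of proteasome gene transcription, 3 rose in both mutants, which share their controls: Nfe2l1, which encodes NRF1, Ufd1, which helps to extract ubiquitinated proteins from the ER membrane, and Mafg, a small partner of NRF factors. Over all genes 13.8% passed in Gtpbp1-/- RNA and 8.63% in Gtpbp2-/- RNA. At an unadjusted p under 0.05 there were 5 regulators in Gtpbp1-/- and 6 in Gtpbp2-/-, with 1 lower in each. The share of all genes at that p was 26.3% and 22.5%. Nfe2l1 RNA was 215, 227 and 187 CPM in B6J, 323, 310.1 and 349 in Gtpbp1-/- and 293, 336 and 344 in Gtpbp2-/-, and Ufd1 RNA 62.7, 56.98 and 59.0 in B6J, 88.3, 79.9 and 83.8 in Gtpbp1-/- and 81.3, 83.9 and 80.1 in Gtpbp2-/-. Every mutant library of both genes lay above every B6J library, with changes of 0.64 ± 0.09 and 0.62 ± 0.10 for Nfe2l1 (edgeR adjusted p = 3.85e-04 and 0.00256) and of 0.49 ± 0.08 and 0.45 ± 0.08 for Ufd1 (8.84e-04 and 0.00488). Mafg changed by 0.36 and 0.33 (edgeR adjusted p = 0.00684 and 0.0491), and passed in 12 of 14 alternatives in Gtpbp1-/- and 8 of 13 in Gtpbp2-/-. In footprints 0 of the 13 regulators passed in either mutant (0 and 2 at an unadjusted p under 0.05, beside 12.6% and 17.1% of all genes).

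Of 17 partners of the proteasome outside the symbol rule, such as the ubiquitin receptor Adrm1 and the maturation factor Pomp, 1 fell in Gtpbp1-/- RNA, the proteasome activator Zfand5. It had 299, 331 and 339 in B6J, 257, 244 and 253 in Gtpbp1-/- and 283, 278 and 259.8 in Gtpbp2-/-, a change of −0.37 ± 0.08 in Gtpbp1-/- (edgeR adjusted p = 0.00690) with no overlap. None of the 17 passed in Gtpbp2-/- RNA. Past the threshold were 13.8% of all genes in Gtpbp1-/- and 8.63% in Gtpbp2-/-. At an unadjusted p under 0.05 there were 2 partners in each mutant, all lower, beside 26.3% and 22.5% of all genes. Of 6 ubiquitin and ubiquitin-activating enzyme genes none passed in RNA in either mutant. In each mutant 3 were at an unadjusted p under 0.05, 1 higher and 2 lower, beside the same 26.3% and 22.5%.

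The members lie on 16 chromosomes, 10 of them on chromosome 11. Within 50 kb of another member were 3 pairs: Psmb8 (chr17:34197721-34201454, GRCm38) and Psmb9 (chr17:34181987-34187764) in the major histocompatibility complex, 9956 bases apart and on opposite strands; Psmb5 (chr14:54614119-54618022) and Psmb11 (chr14:54621433-54629556), 3410 bases apart; and Psme1 (chr14:55578123-55581529) and Psme2 (chr14:55587441-55591113), 5911 bases apart. The other genes past the threshold were Psmd14 at chr2:61711694-61800376, Psmd9 at chr5:123169413-123250131, Psmc1 at chr12:100110154-100123405 and Psmb7 at chr2:38588036-38644087.

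Promoter sequences of RefSeq (GRCm38.p6), matched by symbol, were found for 42 of the 50 members, and the 250 bases before each RefSeq start were searched on both strands for 4 motifs. The interferon response core GAAANNGAAA was present in 3 members (Psmb3, Psmd4 and Psmd9) and 2.98% of 32851 promoters, the gamma-interferon activation site TTCNNNGAA in 2 (Psmb8 and Psmg1) and 7.02%, the antioxidant response core TGACNNNGC, which NRF factors bind, in 5 (Psmb5, Psmb6, Psmc6, Psmd12 and Psmd9) and 10.2%, and CCAAT in 15, Psmb9 among them, and 33.8%. A match is a description of the letters and not a bound site. The stretches below set the inducible genes beside constitutive catalytic genes, 5′ to 3′ on the gene's strand, with matches in capitals. The whole window of Psmb8 and of Psmb9 lies inside the gene as placed above, within annotated exons, so for these a site of 30 bases is given (chr17:34198088-34198117, plus strand, with the gamma-interferon activation site, and chr17:34187331-34187360, minus strand, with CCAAT read on the other strand), and for the others the bases outside exons (Psmb10 chr8:105938445-105938642, minus strand, no match; Psmb5 chr14:54618023-54618245, minus strand, and Psmb6 chr11:70525107-70525356, plus strand, each with 1 antioxidant response core).
Psmb8: tcctccgctgTTCCCAGAAgatgccccccc
Psmb9: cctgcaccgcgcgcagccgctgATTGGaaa
Psmb10: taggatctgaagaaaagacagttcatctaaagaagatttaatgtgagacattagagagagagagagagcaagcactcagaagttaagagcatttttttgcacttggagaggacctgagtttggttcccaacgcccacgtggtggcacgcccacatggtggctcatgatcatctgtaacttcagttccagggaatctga
Psmb5: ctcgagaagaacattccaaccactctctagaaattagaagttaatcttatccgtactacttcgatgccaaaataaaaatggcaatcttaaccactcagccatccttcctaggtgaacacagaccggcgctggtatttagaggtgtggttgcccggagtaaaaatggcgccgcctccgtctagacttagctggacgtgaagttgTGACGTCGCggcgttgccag
Psmb6: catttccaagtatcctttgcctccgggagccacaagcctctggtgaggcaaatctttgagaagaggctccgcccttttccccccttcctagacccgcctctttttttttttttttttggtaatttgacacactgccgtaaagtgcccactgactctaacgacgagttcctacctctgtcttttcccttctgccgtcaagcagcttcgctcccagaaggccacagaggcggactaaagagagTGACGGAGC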

How the data were processed

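RNA and ribosome footprints of whole cerebellum were measured in 9 libraries each, 3 per genotype. Per the deposited processing notes, the authors made the estimated counts and TPM of the RNA files with kallisto 0.42.4, per transcript, and the footprint counts per gene on coding sequence with Bowtie2 2.2.3, HISAT2 2.1.0 and featureCounts on mm10. The deposited estimated counts were summed here over each gene's transcripts and rounded, and the deposited TPM were summed. All RNA libraries are labelled batch 1 and all footprint libraries batch 2.

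Each comparison used its own 6 libraries. Genes that reached 5 counts in 3 or more of these were tested with edgeR 4.0.16 (TMM factors, quasi-likelihood F-test, with limma 3.58.1 loaded), and p was adjusted over all genes tested by the Benjamini-Hochberg method, with a threshold of 0.05. Translational efficiency was the interaction of assay and genotype in 12 libraries, for genes that reached 10 counts in 3 or more of the 6 libraries of each assay, histone genes left out. Each comparison had as alternatives DESeq2 1.42.0, no filter, replicate number as a block, all libraries in 1 model and each library left out. Upper quartile factors were tried for RNA and footprints. An offset for transcript length and protein-coding transcripts alone were tried for RNA. Sex as a covariate was tried only for Gtpbp1-/- RNA against B6J. For translational efficiency, TMM factors within each assay were also tried. The code of the fits was tested on simulated data with known changes, which bears on the code and not on the calls.

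Values per library are given for members past the threshold in any comparison, for the catalytic subunits and their inducible counterparts, and for the 3 members with the smallest p in each RNA comparison with B6J; of other lists, for at most 5 genes past the threshold, and some single genes of these lists are not reported here. Other genes named with values, such as Psme1, Psme4, Psma8 and Psme2b, were chosen after the values were seen. Members and lists were chosen with earlier results of these data known. Gene positions, exons and coding sequences were those of GENCODE M21. Python 3.11.15 (numpy 2.4.6, pandas 2.3.3, scipy 1.17.1, matplotlib 3.10.9) and R 4.3.3 were used.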

Additional observations from a re-analysis of the deposited data

How the results depend on the processing

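The count of members past the threshold and the members' median were each followed in 106 alternative fits. Against B6J the median ran from 0.0296 to 0.0892 in Gtpbp1-/- RNA and from −0.0146 to 0.0632 in Gtpbp2-/- RNA. In footprints it ran from 0.0269 to 0.1911 in Gtpbp1-/- and from −0.0227 to 0.1091 in Gtpbp2-/-. In Gtpbp1-/- RNA the count of 5 became 8 with DESeq2, 1 with sex as a covariate, 1 with the transcript length offset and 0 to 3 with single libraries left out. In Gtpbp2-/- RNA the count of 0 became 2 with DESeq2, 2 with all libraries in 1 model, 2 with no filter, 1 with upper quartile factors and 0 to 1 with single libraries left out. In Gtpbp1-/- footprints the count of 0 became 1 with DESeq2.

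The replicate numbers did not pair the libraries: the correlation of deviations between same-numbered libraries ran from −0.324 to 0.251, and not every library correlated best with its own number. With the replicate block the count was 1 in Gtpbp1-/- RNA and 1 in Gtpbp2-/- RNA, and Psmb7 footprints in Gtpbp1-/- stood at −0.0152.

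Of 681 values of single genes under the alternatives 587 kept call and direction, 62 were weaker, 16 stronger and 16 turned direction. The cause was not tested. They were Psmb6 RNA in Gtpbp1-/- (0.0145 with the length offset, 0.0264 with upper quartile factors, −0.0501 to 0.0078 with single libraries left out), Psmd9 RNA in Gtpbp2-/- (−0.16 with the length offset), Psmb7 footprints in Gtpbp1-/- (−0.0129 with 1 model, −0.15 to 0.17 with libraries left out) and Psmb9 footprints in Gtpbp1-/- (−0.31 to 1.60). In Gtpbp2-/- footprints, with libraries left out, they were Psmb9 (−0.25 to 0.46), Psmb10 (−0.0481 to 0.31), Psmb6 (−0.21 to 0.0246) and Psmb7 (−0.0224 to 0.19).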

Other observations

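Sex was read from the Y-linked gene Ddx3y. Its estimated RNA counts were 0, 4663 and 26 in the B6J libraries, 5455, 6574 and 21 in Gtpbp1-/- and 21, 13 and 12 in Gtpbp2-/-, so no Gtpbp2-/- RNA library came from a male. Its footprints were 379, 330 and 3 in B6J, 835, 25 and 4 in Gtpbp1-/- and 16, 4 and 11 in Gtpbp2-/-. The first B6J RNA and footprint libraries thus came from mice of different sex, and by these counts so did the second Gtpbp1-/- libraries.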
